A study of Mus musculus with 6 samples.

Results

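Broad CTCF peaks were taken here as peaks of 800 bp or more, measured as end minus start in each deposited peak list. They numbered 440 of 29769 peaks in clone D, 194 of 32308 in clone C8 and 339 of 40271 in wild type, 973 of 102348 in all. The members were chosen by the width that the authors' peak calling gave, so the widths and the strength of these peaks are a description and carry no test. The samples were G1E-ER4 cells, mouse erythroblasts without GATA1 of their own in which a GATA1-ER fusion protein is switched on by estradiol. All groups were treated with 100 nM estradiol for 24 hours, so wild type refers to the BRD2 gene only, and GATA1 was absent except as the fusion in every group. BRD2-null cells were clones D and C8, labelled D_Brd2KO and C8_Brd2KO, each a single sub-line edited with CRISPR/Cas9 and without detectable BRD2 (1 CTCF ChIP library each), and the wild-type cells gave 1 CTCF ChIP library. BRD2 itself cannot be checked in peak lists, and neither can the erythroid cell type.

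A long DNA motif is read by the zinc fingers of CTCF, which sits at insulators, at the borders of chromatin domains and at the anchors of loops formed with cohesin. In ChIP-seq, the fragments bound by an antibody are sequenced, and those from a lone CTCF site pile up into a narrow peak. Where sites lie closer together than the fragments are long, a peak caller may report them as a single wide peak or as neighbouring peaks. BRD2 is a BET protein that reads acetylated histones, and the study asked about its part beside CTCF at transcriptional boundaries.

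Broad peaks were a small share of each list, and clone D had the most. They made up 1.48% of clone D peaks (exact 95% binomial interval 1.34 to 1.62), 0.600% of clone C8 peaks (0.519 to 0.691) and 0.842% of wild-type peaks (0.755 to 0.936). The intervals cover counting error only. The clones averaged 1.04% ± 0.621 (SD, n = 2), a range that includes the wild-type share, so the wild-type value did not stand outside the spread between the BRD2-null clones. With 1 wild-type library, no test between genotypes is possible and none is given below. Broad peaks covered 416, 182 and 314 kb in clone D, clone C8 and wild type, which was 2.79%, 1.31% and 1.82% of the bases under peaks. The depth of the libraries is unknown here.

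Their widths lay close to the threshold, with a single far exception. The quartiles of broad peak width were 831.75 to 1007 bp for clone D, 848.25 to 970.75 bp for clone C8 and 822.5 to 974 bp for wild type. Over the whole lists the median width was 489, 417 and 402 bp. In clone D 214 of 440 broad peaks were narrower than 900 bp, in clone C8 97 of 194 and in wild type 203 of 339. Widths of 1000 bp or more were found for 120, 37 and 70 peaks. Peaks of at least 700 but under 800 bp numbered 1626 in clone D, 436 in clone C8 and 896 in wild type. The count therefore depends strongly on the width chosen: at 700 bp it was 2066, 630 and 1235.

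Just inside the threshold, clone D had peaks of 800 bp at chr6:50538066-50538865 and chr7:20434716-20435515, with enrichments of 66.69 and 44.42. Just outside it lay peaks 1 bp narrower, at chr6:86696973-86697771 and chr10:119668579-119669377, with enrichments of 72.45 and 51.19. In clone C8 the peaks inside were chr11:97600021-97600820 (800 bp, enrichment 35.9) and chr17:36962632-36963432 (801 bp, 52.97), and those outside were chr17:56394921-56395719 (45.16) and chr1:179870354-179871151 (90.05). In wild type the peaks inside were chr15:9049591-9050390 and chr8:87513722-87514521 (both 800 bp, enrichments 96.77 and 84.18), and those outside were chr2:116722397-116723195 and chr1:137707660-137708458 (75.33 and 42.39).

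**Figure D1:**
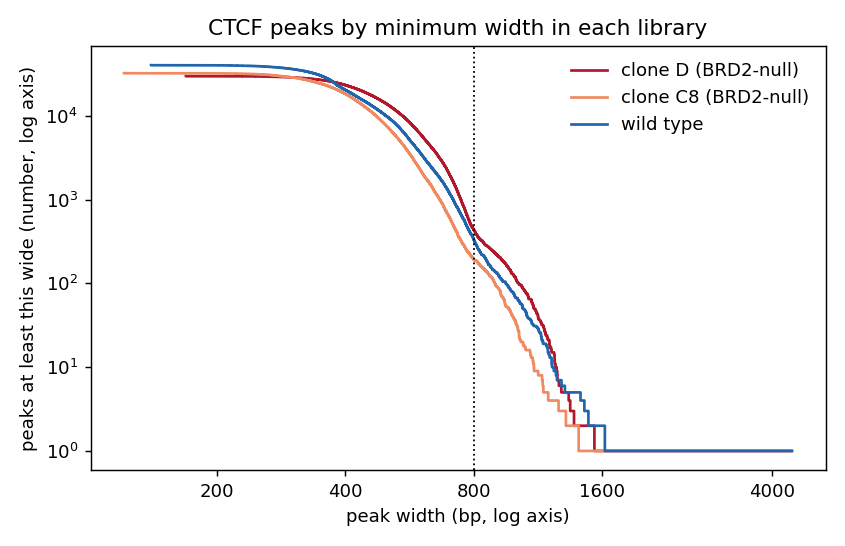
Number of peaks (vertical axis, log scale) at least as wide as the value on the horizontal axis (bp, log scale) in clone D, clone C8 and wild type; the dotted line marks 800 bp. At 800 bp the curves stand at 440, 194 and 339 peaks, and the widest peak of each list, at 4445, 4388 and 4464 bp, stands far to the right of the rest.

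Most shared peaks were wider in clone D than in the other libraries. Among 25069 pairs of clone D and wild-type peaks that overlapped each other and no further peak, the median ratio of clone D to wild-type width was 1.13 (quartiles 0.954 and 1.36), and the clone D peak was wider in 68.4%. Between clone C8 and wild type the ratio was 0.986 (0.821 and 1.18) over 26031 pairs. Between clone D and clone C8 it was 1.15 (0.983 and 1.35) over 25987 pairs. The widths were only loosely related from library to library: across these sites Pearson's r of the log2 widths was 0.449, 0.436 and 0.506, and Spearman's rho 0.423, 0.404 and 0.472. These correlations describe sites that share their strength and sequence, and sites are not replicates. The 1000 widest peaks reached down to 746 bp in clone D, 666 bp in clone C8 and 716 bp in wild type, so an equal width is a different depth into each list.

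Broad peaks were strong for their lists. The authors' enrichment, a fold value with no stated denominator, had a median of 32.11 for broad peaks of clone D, 43.74 for clone C8 and 55.51 for wild type. The peaks under 800 bp had medians of 17.29, 21.39 and 22.29. These values rank peaks within a list and are not compared between lists. Each list was divided into 10 equal classes by enrichment, class 1 the weakest and class 10 the strongest. Class 10 held 34.5% of the broad peaks of clone D, 40.7% of clone C8 and 39.5% of wild type. In that class 5.11%, 2.45% and 3.33% of peaks were broad, and in class 1 0.269%, 0.155% and 0.521%. The median width of all peaks moved alongside: in clone D it was 391 bp in class 1 and 619 bp in class 10.

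**Figure D2:**
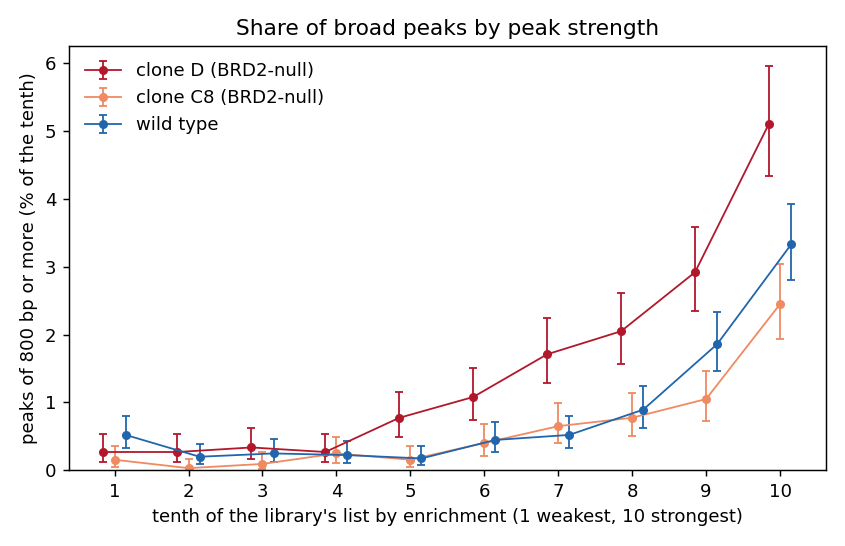
Share of peaks of 800 bp or more (vertical axis, %) in each of 10 equal classes of a library's list by the authors' enrichment (horizontal axis, 1 weakest to 10 strongest) for clone D, clone C8 and wild type; bars are exact 95% binomial intervals. The share is highest in class 10 of each list, at 5.11%, 2.45% and 3.33%, and clone D is above the others from class 2 on, while in class 1 wild type is highest (0.269%, 0.155% and 0.521%).

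Each library also had some weak broad peaks. Classes 1 to 5 held 57 of 440 in clone D, 22 of 194 in clone C8 and 55 of 339 in wild type. By enrichment, class 1 of wild type held 21 of the 339, more than any of classes 2 to 6, which held 7 to 18 each. Ranked by the authors' −log10 p instead, class 1 of wild type held 1 of the 339. The authors' false discovery rate was 0.05 or lower for 430 of 440 broad peaks of clone D, 194 of 194 of clone C8 and 313 of 339 of wild type. Over all peaks the shares were 94.8%, 85.4% and 52.7%. This rate did not always follow strength. It was 0.125 for the second strongest peak of clone D, chr12:70461466-70462398. It was 0.111 for the strongest broad peak of wild type, chr16:11423250-11424284, with a −log10 p of 310. A broad peak above 0.05 is therefore not always a weak one. The authors' −log10 p was at least 20 for 93.4% of broad peaks in clone D, 94.3% in clone C8 and 84.7% in wild type. For peaks under 800 bp it was 49.7%, 45.0% and 33.9%.

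The strongest broad peaks of each library were called in the others too, some of them narrower. In clone D the strongest was also the strongest peak of the list, chr13:111158565-111159408 (844 bp, enrichment 125.96). Both other libraries called it under 800 bp, at 645 bp in clone C8 and 612 bp in wild type, and it ranked 2 in each of those lists. The second, chr12:70461466-70462398, was 933 bp wide in clone D (rank 2), 388 bp in clone C8 (rank 3) and 657 bp in wild type (rank 7). The third, chr9:121606448-121607302, was 855 bp wide in clone D (rank 5), 735 bp in clone C8 (rank 8) and 693 bp in wild type (rank 1).

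The strongest broad peak of clone C8 was chr13:59941743-59942732, 990 bp wide there, 1018 bp in clone D and 818 bp in wild type. In wild type the strongest was at chr16:11423250-11424284. It was 1004 bp wide in clone D (rank 99 of 29769), 921 bp in clone C8 (rank 34 of 32308) and 1035 bp in wild type (rank 4 of 40271, enrichment 247.81). Both of these regions were broad in all 3 libraries. Next in wild type came chr3:153631363-153632165, which was 910 bp wide in clone D, 534 bp in clone C8 and 803 bp in wild type (rank 22). The third, chr2:167244306-167245237, was 751 bp wide in clone D, 847 bp in clone C8, where it was the second strongest broad peak, and 932 bp in wild type (rank 25).

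Broad peaks of the clones were nearly always called in the other libraries, in one form or another, and those of wild type in most cases. In wild type, 434 of 440 broad peaks of clone D were overlapped by at least 1 bp (98.6%, 97.1 to 99.5), against 85.1% of all clone D peaks. For clone C8 it was 189 of 194 (97.4%, 94.1 to 99.2), against 81.4% of all clone C8 peaks. Between the clones, 434 of 440 broad peaks of clone D were overlapped in clone C8, where 87.9% of all clone D peaks were, and 190 of 194 broad peaks of clone C8 were overlapped in clone D (97.9%, 94.8 to 99.4), against 81.3% of all. Broad peaks of wild type were overlapped less often: clone D matched 289 of 339 (85.3%, 81.0 to 88.9), against 63.1% of all wild-type peaks, while clone C8 matched 295 (87.0%, 83.0 to 90.4), against 65.3%. A wide peak has more bases to be overlapped, so the central 200 bp were also tried. They were overlapped for 97.5% of broad clone D peaks and 96.9% of broad clone C8 peaks in wild type, and for 85.0% and 85.8% of broad wild-type peaks in clones D and C8.

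Sharing went with strength. Among classes 6 to 10, 383 of 383 broad peaks of clone D and 172 of 172 of clone C8 were overlapped in wild type, and 282 and 284 of 284 broad wild-type peaks in clones D and C8. Narrower peaks of the same classes were overlapped at 98.9% and 98.7% in wild type and at 95.2% and 96.6% in the clones. Among classes 1 to 5 the libraries parted: 51 of 57 broad peaks of clone D (89.5%, 78.5 to 96.0) and 17 of 22 of clone C8 (77.3%, 54.6 to 92.2) were overlapped in wild type, where narrower peaks were at 71.2% and 64.0%. Of 55 broad wild-type peaks in classes 1 to 5, clone D matched 7 (12.7%, 5.27 to 24.5) and clone C8 matched 11 (20.0%, 10.4 to 33.0), where narrower wild-type peaks were at 30.9% and 33.9%. Both shares lie below those of narrower peaks. The intervals cover counting error only and give no test, since peaks of 1 library are not replicates. Of the 55, 9 lay in the segment of chromosome 14 described below, and neither clone matched any of those.

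Broad peaks without a match in either other library numbered 4 of 440 in clone D, 4 of 194 in clone C8 and 44 of 339 in wild type. All 52 lay in classes 1 to 5. The same share of all peaks was not counted. Against each clone alone, broad wild-type peaks were matched more often than all wild-type peaks, as given above. Within classes 1 to 5 they were matched less often than narrower ones. Narrower wild-type peaks without a match in clone D also lay mostly in classes 1 to 5, with 13873 against 943 in classes 6 to 10. For clone C8 the counts were 13266 and 680. The widest unmatched broad peak of clone D was chr7:133939170-133940340 (1171 bp, enrichment 9.5, rank 24965 of 29769), followed by chr1:39473208-39474182 (975 bp) and chrX:32113552-32114444 (893 bp). Clone C8 had chr7:128089839-128090785 (947 bp, enrichment 6.35, rank 32268 of 32308), chr14:7410608-7411491 (884 bp) and chr14:5682830-5683698 (enrichment 6.99). Wild type had chr19:21999228-22000651 at 1424 bp with an enrichment of 10.12 and rank 37884 of 40271, then chr14:7926193-7927439 (1247 bp) and chrX:79902591-79903753 (1163 bp). The 44 unmatched wild-type peaks had a median enrichment of 12.02 and a highest of 21.81. The authors' false discovery rate was 0.05 or lower for 23 of them, and for 52.7% of all wild-type peaks.

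A segment at the start of chromosome 14, from 2000001 to 8000000, held part of these unmatched peaks. It held 0 broad peaks in clone D, 3 in clone C8 and 9 in wild type, of 6, 90 and 280 peaks. None of the 12 was overlapped by a peak of another library. The share of all peaks of the segment without a match was not counted, and clone D had few peaks there to match any. Enrichments of the 12 ran from 6.01 to 6.99 in clone C8 and from 7.5 to 12.14 in wild type. Peaks of all widths were weak there too. From 1 to 10000000 on this chromosome their median enrichment was 9.04 in clone C8 and 11.55 in wild type, against 21.53 and 22.68 over the whole lists. Without this segment, which was singled out after its values were seen, the share of broad wild-type peaks overlapped in the clones was 88.5% as the mean of the 2, against 86.1% with it.

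Being called as a broad peak elsewhere was much less common than being called at all. Of broad clone D peaks, 130 of 440 were overlapped by a broad wild-type peak (29.5%, 25.3 to 34.0), against 1.07% of all clone D peaks, and of broad clone C8 peaks 82 of 194 (42.3%, 35.2 to 49.6), against 1.09% of all. In the other direction, 130 of 339 broad wild-type peaks were overlapped by a broad peak of clone D (38.3%, 33.1 to 43.8; 1.31% of all wild-type peaks) and 82 by one of clone C8 (24.2%, 19.7 to 29.1; 0.566% of all). The clones shared 123 broad peaks, which was 28.0% of those of clone D (23.8 to 32.4; 0.692% of all clone D peaks) and 63.4% of those of clone C8 (56.2 to 70.2; 1.60% of all clone C8 peaks). The values followed the length of the broad list searched: each library's broad peaks were found most often in clone D, where it was searched, and least often in clone C8.

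With the 1000 widest peaks of each list, the sizes were equal and the order of some of these shares changed. The clones then shared 34.3% of their widest peaks, against a mean of 26.4% ± 0.636 (SD, n = 2) of the clones' widest peaks that were among the widest of wild type. In regions, 174 were then among the widest in both clones alone, 100 in clone D and wild type only and 91 in clone C8 and wild type only. With the threshold of 800 bp the counts were 51, 58 and 10. Both values behind that mean come from the same wild-type library, so the SD leaves out the spread between wild-type libraries and does not gauge the difference.

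The peaks that matched a broad peak ranged widely in width, and the medians here are over all matches, broad ones included. The widest wild-type peak at a broad clone D peak had a median of 663 bp (quartiles 506 and 830.75), and at a broad clone C8 peak 748 bp (551 and 883). At broad wild-type peaks the medians were 776 bp for clone D peaks, and 637 bp for clone C8 peaks. Of the 434 broad clone D peaks matched in wild type, 60 had a widest match of at least 700 but under 800 bp, as had 25 of 189 of clone C8. Wild-type peaks covered a median of 79.6% of the bases of a broad clone D peak and 85.1% of a broad clone C8 peak. Broad wild-type peaks were covered at 88.5% by clone D and 78.0% by clone C8. Peaks matched by a lone peak had nearly the same centre, with median offsets of 53.0 bp (clone D in wild type), 62.2 bp (clone C8 in wild type), 55.8 bp (wild type in clone D) and 56.5 bp (wild type in clone C8). The matching peak was itself the wider of the pair for 54 of 434 broad clone D peaks and 44 of 189 broad clone C8 peaks in wild type.

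**Figure D3:**
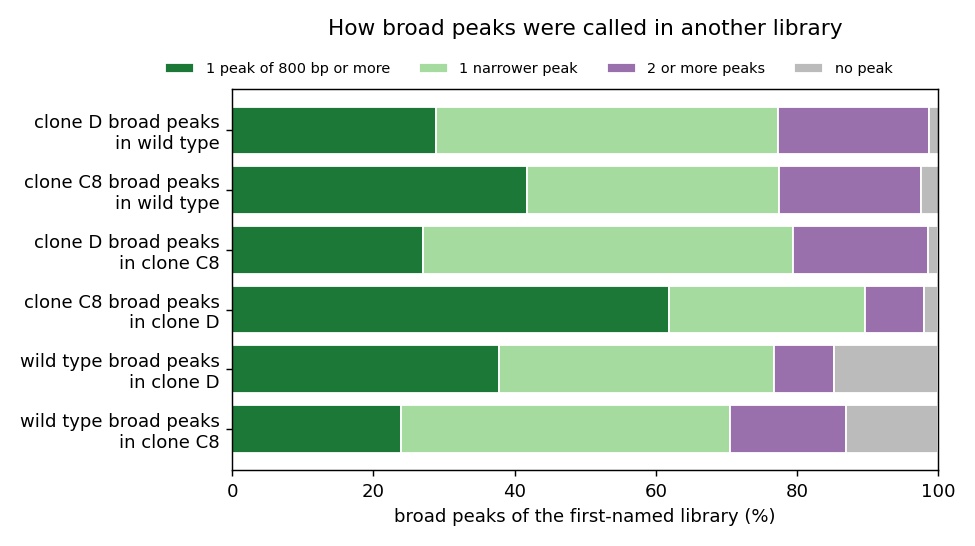
How the broad peaks of the first-named library were called in another: as 1 peak of 800 bp or more, as 1 narrower peak, as 2 or more peaks, or not at all (horizontal axis, % of the broad peaks; 1 bar for each ordered pair of libraries). A lone narrower peak is the most common form for clone D peaks in wild type (48.4%), and a lone broad peak for clone C8 peaks in clone D (61.9%).

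Between 8.25% and 21.4% of broad peaks were split in another library. The shares over all peaks are given beside these, but a narrower peak has less room to lie over 2 peaks. The part of width in this difference was not tested. In wild type, 94 of 440 broad clone D peaks lay over 2 or more peaks (21.4%, 17.6 to 25.5; 0.497% of all clone D peaks), and 39 of 194 broad clone C8 peaks did (20.1%, 14.7 to 26.4; 0.275% of all). Broad wild-type peaks were split less often in clone D, at 29 of 339 (8.55%, 5.80 to 12.1; 0.159% of all wild-type peaks), and at 56 of 339 in clone C8 (16.5%, 12.7 to 20.9; 0.236% of all). Clone C8 split 84 broad peaks of clone D (19.1%, 15.5 to 23.1; 0.420% of all clone D peaks), and clone D split 16 of 194 of clone C8 (8.25%; 0.139% of all clone C8 peaks). Clone D, the library with the widest peaks, was thus the one that split the fewest. Of the 318 splits, 317 were into 2 pieces and 1 into 3. Splits were counted over ordered pairs of libraries, so they are not 318 separate places. Pieces of a library that lay under broad peaks of both others were counted for each, also in the medians below.

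The pieces lay close together, which the definition requires, as all of them overlap the same broad peak. Gaps between other neighbouring peaks were not compared. Over all 318 splits the median gap was 81.5 bp, with a range of 2 to 587, and in 201 of them the largest gap was under 100 bp. The wider piece had a median width of 499.5 bp and the narrower 380.5 bp. The wider pieces lay near the upper quartile of the list they came from. Their medians were 473 and 489 bp in wild type (upper quartile 498), 493.5 and 498.5 bp in clone C8 (493) and 587 and 593 bp in clone D (579). The medians of those lists were 402, 417 and 489 bp, and the narrower pieces had medians below them. The weaker piece had a median of 0.552 of the enrichment of the stronger. Only 14 splits had a piece that was itself 800 bp or more. The widest gap, 587 bp, lay within chr11:103186476-103187759, a clone D peak of 1284 bp with an enrichment of 12.74, over which clone C8 had peaks of 323 and 334 bp.

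Wider peaks were split more often. Of clone D peaks of 800 bp to under 900 bp, 9.81% were split in wild type, of those of 900 bp to under 1000 bp 19.8%, and of those of 1000 bp or more 43.3% (34.3 to 52.7). In clone C8 the shares of clone D peaks were 6.07%, 20.8% and 40.8%. Wild-type peaks were split at 3.94%, 9.09% and 21.4% in clone D and in clone C8 at 8.37%, 16.7% and, of the widest, 28 of 70. Some splits recurred: of 128 broad peaks of clone D that were split in at least 1 other library, 50 were split in both, of 46 of clone C8 9 were, and of 62 of wild type 23.

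A layout with a single broad peak in both BRD2-null clones and a split in wild type was found for 27 of 440 broad peaks of clone D and 27 of 194 of clone C8. The reverse, a broad wild-type peak split in both clones, was found for 23 of 339. Clone C8 stood apart in the first way as often: 27 broad peaks of clone D were a single broad peak in wild type and split in clone C8. In the reverse way, 9 of 194 broad clone C8 peaks were split in both other libraries. For clone D, 3 of 339 broad wild-type peaks were a single broad peak in clone C8 and split in clone D. In the reverse way, 50 of 440 broad clone D peaks were split in both others. Clone D was thus lowest in the first way and highest in the reverse. The shares of these layouts over all peaks were not counted. The first layout included 2 regions among the 4 widest peaks of each clone. At chr1:88397409-88398783 clone D had a peak of 1375 bp and clone C8 one of 1410 bp (chr1:88397339-88398748), with enrichments of 32.51 and 65.51. Wild type had peaks of 693 and 713 bp there, chr1:88397393-88398085 and chr1:88398099-88398811, separated by 13 bp, with enrichments of 55.71 and 81.0. At chr9:107579701-107581047 clone D had a peak of 1347 bp, and clone C8 one of 1316 bp at chr9:107579708-107581023. Wild type had peaks of 448 and 783 bp, 100 bp apart, with enrichments of 19.32 and 47.31. Together the wild-type pieces spanned nearly the same bases as the clone peaks in both regions.

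The same layout was seen at chr12:32976714-32977970. There clone D had a peak of 1257 bp and clone C8 one of 1265 bp (chr12:32976730-32977994), while wild type had a peak of 843 bp and a weaker one of 301 bp, 111 bp apart, with enrichments of 44.53 and 14.6. Since the larger wild-type piece was above 800 bp, this region counts as broad in all 3 libraries.

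The reverse layout and others were seen as well. At chr12:72011098-72012583 clone D had peaks of 739 and 534 bp, 133 bp apart, and clone C8 peaks of 465 and 504 bp, 324 bp apart, where wild type had a single peak (1486 bp, enrichment 63.25). At chr17:34105251-34106874 the clones differed. Clone D had a peak of 1535 bp (chr17:34105264-34106798), clone C8 had pieces of 420 and 925 bp, 52 bp apart, and wild type had a peak of 1624 bp. The split into 3 was at chr10:80343582-80344608. Clone D had peaks of 586 and 973 bp there, 16 bp apart, clone C8 had peaks of 641, 305 and 428 bp, with gaps of 37 and 78 bp, and wild type had a peak of 1027 bp at rank 224.

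Joined by overlap across the libraries, the broad peaks formed 710 regions, of which 72 (10.1%) were broad in all 3 libraries. Another 119 (16.8%) were broad in 2 libraries and 519 (73.1%) in 1. By library, 259 regions were broad in clone D only, 61 in clone C8 only and 199 in wild type only. The clones alone shared 51 regions. All 51 had a wild-type peak, whose widest had a median of 555 bp, and 28 of them held more than 1 wild-type peak. Of the 199 regions broad in wild type only, 149 were called in all 3 libraries, 6 in 2 libraries and 44 in wild type alone.

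**Figure D4:**
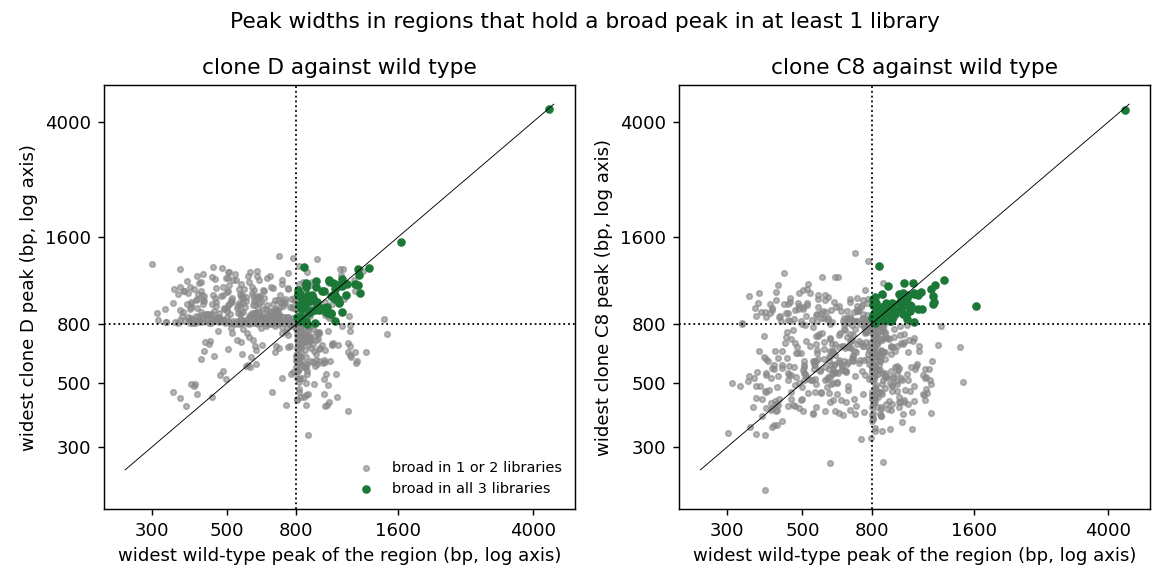
Width of the widest clone D peak (left) and clone C8 peak (right) against the widest wild-type peak (both axes in bp, log scale) in regions that hold a broad peak in at least 1 library and a peak in both libraries plotted; dotted lines mark 800 bp, the thin line equal widths, and green points the 72 regions broad in all 3 libraries. Most points lie in the upper left or lower right field of the clone D panel, and the region on chromosome 12 of 4388 to 4464 bp stands alone at the upper right of both panels.

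Regions broad in all 3 libraries were among the stronger sites but not the strongest as a group. Their median width was 978 bp in clone D, 923 bp in clone C8 and 928 bp in wild type. Class 10 held 24 of the 72 in clone D, 32 in clone C8 and 37 in wild type. Their ranks reached from 99 to 20904 of 29769 in clone D, from 27 to 19936 of 32308 in clone C8 and from 4 to 26312 of 40271 in wild type. They were spread over 17 autosomes and chromosome X, with 8 each on chromosomes 12 and 17 and 7 each on chromosomes 1, 2, 5 and 15.

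The widest by far was on chromosome 12, where the peak was 4445 bp wide in clone D (chr12:60135838-60140282), 4388 bp in clone C8 (chr12:60135880-60140267) and 4464 bp in wild type (chr12:60135750-60140213). It was the widest peak of each list, and the next widest was 1535 bp in clone D, 1410 bp in clone C8 and 1624 bp in wild type. Its rank was 16591 of 29769 in clone D, 19936 of 32308 in clone C8 and 6731 of 40271 in wild type, with enrichments of 15.64, 16.8 and 50.6. The −log10 p was 112.6 and 117.4 in clones D and C8 and 310 in wild type, where the authors' false discovery rate was 0.111.

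The other 4 regions with the largest width common to all libraries were of ordinary broad size. At chromosome 12, 112229672 to 112231065, the peaks were 1244 bp in clone D, 1133 bp in clone C8 and 1309 bp in wild type, at ranks 15585, 10483 and 8903. At chromosome 5, 140914563 to 140915756, they were 1100, 1059 and 1194 bp, at ranks 20904, 14611 and 733. The −log10 p there was 34.5 in clone D, 72.4 in clone C8 and 292.1 in wild type. At chromosome 1, 7386700 to 7387932, they were 1022, 1086 and 1233 bp, and the ranks of 1186, 146 and 98 lay near the top of every list. At chromosome 1, 171447476 to 171448669, they were 1093, 1022 and 1064 bp, at ranks 13380, 10512 and 4283.

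Broad peaks were unevenly spread over the chromosomes, and chromosome X had few. On chromosome X 0.605% of clone D peaks, 0.106% of clone C8 peaks and 0.248% of wild-type peaks were broad (5, 1 and 4 peaks), and chromosome Y had none of 1, 2 and 22 peaks. Chromosome X was lowest in clones D and C8, while in wild type chromosome 16 was lowest at 0.220%. Peaks on chromosome X were also narrower in general, with medians of 427, 380 and 377 bp, and the part of that in the low share was not tested.

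Chromosomes 12 and 17 had high shares in every library. On chromosome 12, 2.75% of clone D peaks (1.91 to 3.83), 0.938% of clone C8 peaks (0.486 to 1.63) and 1.63% of wild-type peaks (1.10 to 2.34) were broad. On chromosome 17 the shares were 2.12%, 1.13% and 1.43%. The median over chromosomes was 1.34% in clone D, 0.572% in clone C8 and 0.844% in wild type. Chromosome 19 differed by library, with 13 broad peaks in clone D (1.36%), 3 in clone C8 (0.298%) and 20 in wild type (1.73%), the highest share of that library.

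Chromosome 1 was highest in clone D, where 59 of 2052 peaks were broad (2.88%, 2.20 to 3.69). The share was 0.721% in clone C8 and 1.09% in wild type. Peaks of all widths were wide on this chromosome: the median width was 532 bp in clone D, 440 bp in clone C8 and 423 bp in wild type, against medians over autosomes of 487, 415 and 403 bp. It was the widest chromosome by this measure in both clones and the second widest in wild type, after chromosome 12 (424 bp). In clone C8 chromosome 8 came second at 431 bp, against 486 bp in clone D and 398 bp in wild type.

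**Figure D5:**
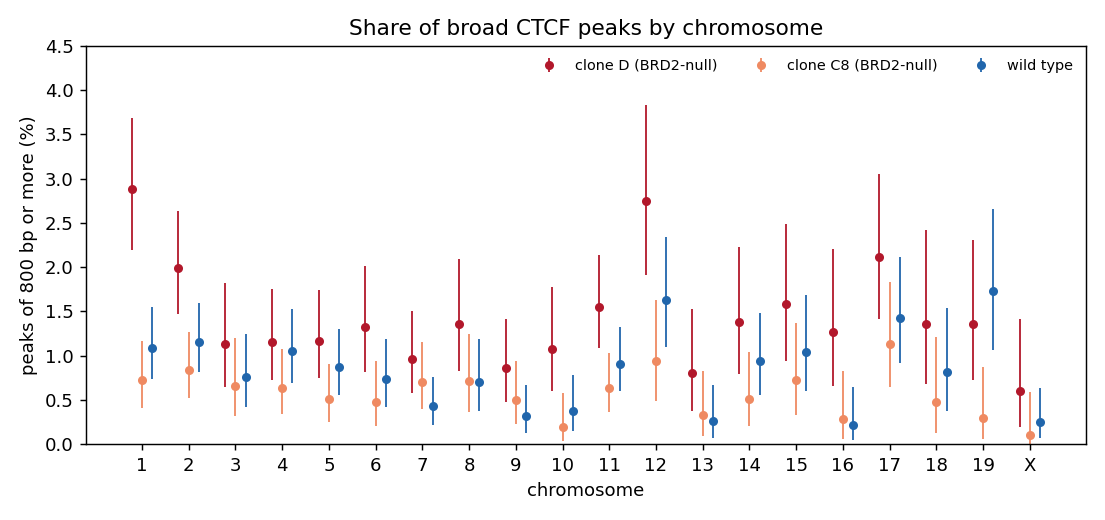
Share of peaks of 800 bp or more (vertical axis, %) on each chromosome (horizontal axis; chromosome Y, with 1, 2 and 22 peaks, is left out) in clone D, clone C8 and wild type; bars are exact 95% binomial intervals. Clone D is highest on chromosomes 1 and 12 (2.88% and 2.75%), and chromosome X is low in each library.

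Within chromosomes, windows of 10 Mb with many broad peaks were looked up after the values were seen. Chromosome 17 from 30000001 to 40000000 held 11 broad peaks in clone D, 8 in clone C8 and 8 in wild type, of 240, 264 and 299 peaks (4.58%, 3.03% and 2.68%), and it was the window with the most in clone C8. Chromosome 17 from 10000001 to 20000000 held 9, 5 and 7. Chromosome 4 from 130000001 to 140000000 held 10, 4 and 10. The window with the most in clone D was on chromosome 1 from 130000001 to 140000000, with 12 broad peaks of 210, against 0 of 229 in clone C8 and 3 of 263 in wild type. All 12 of these clone D peaks were overlapped in both other libraries, by a lone narrower peak in each case except the 2 peaks at chr1:132673154-132674019 (split in wild type) and chr1:135203354-135204548 (split in both).

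Broad peaks had near neighbours somewhat more often than peaks at large. Another peak of the same list lay within 5 kb for 35.7% of broad peaks in clone D, 41.8% in clone C8 and 45.1% in wild type, against 30.4%, 31.2% and 33.5% of all peaks. Within 1 kb the shares were 11.1%, 13.4% and 15.9%, against 8.70%, 8.82% and 10.5% of all peaks. The median gap to the nearest peak was 8874 bp, 7488 bp and 5910 bp for broad peaks, and 11430, 10930 and 10520 bp for all. When peaks of the same list less than 200 bp apart were joined, the peaks of 800 bp or more numbered 683 in clone D, 421 in clone C8 and 709 in wild type, so wild type then held the most. Clone D had more broad peaks than wild type as deposited and fewer once close neighbours were joined, and clone C8 had the fewest either way.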

How the data were processed

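CTCF ChIP-seq of 3 libraries was analysed, without the 3 inputs. The submitters' processing notes name the tools bcl2fastq 1.8.4 and Bowtie 1.0.0 and the build mm9, with no role for either tool. No source used here names a peak caller, its settings or its use of inputs. Each library has 1 peak list from the authors. Its columns were read from the broadPeak layout and the values: the authors' fold enrichment (a ratio), the deposited −log10 p, at least 5 in each list, and a deposited false discovery rate, read as a p-value or q-value given as a fraction. Depth is unknown. Positions are mm9, counted from 1.

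Members were peaks of 800 bp or more. Overlap needed at least 1 bp, a split meant 2 or more peaks of the other list, and regions were connected sets of overlapping peaks. Intervals are exact (Clopper-Pearson, 95%). No test was run, since wild type has 1 library. Named regions followed a rule: the 3 widest, 3 strongest, 3 widest unmatched and 3 most split peaks per list. The 5 regions broadest in all lists and 2 peaks on each side of the threshold were added. Ties among the most split peaks were broken by width. As 317 of 318 splits were into 2 pieces, width mostly decided which split peaks were named. Members and lists were chosen with earlier results of these data known. Genes and sequences are not given, for want of an mm9 reference.

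Python 3.11.15, pandas 2.3.3, numpy 2.4.6, SciPy 1.17.1 and matplotlib 3.10.9 were used. On simulated data 2000 of 2000 broad peaks fell into their class, and for 6 of 6 pairs of lists the overlaps were those bedtools 2.31.1 gave.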

Additional observations from a re-analysis of the deposited data

How the results depend on the processing

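Of 137 values under an alternative, 79 stayed within the limits used here and 58 moved. The limits were a factor of 1.5 for counts, and 1 SD between the clones or the exact 95% interval for shares. Shares with a clone left out are among the 79 by construction, as each of the 2 clones lies within 1 SD of their mean. The counts and shares have no sign to reverse, but some orders between libraries turned. With close neighbours joined, clone D (683) had fewer broad peaks than wild type (709), against 440 and 339 as deposited. With the 1000 widest peaks, the broad share of clone D in clone C8 (34.3%) passed that of the clones in wild type (26.4%), against 28.0% and 35.9% as deposited. For clone D alone the deposited share in wild type was 29.5%. The other direction, clone C8 in clone D, did not turn. It was above the clones in wild type both times, at 63.4% as deposited and 34.3% with the 1000 widest. The cause was not tested where the alternative's construction does not give it. Below, the 4 pairings are clones in wild type (mean of the 2), wild type in clones (mean of the 2), clone D in clone C8 and clone C8 in clone D.

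At 700 bp there were 2066, 630 and 1235 broad peaks in clone D, clone C8 and wild type and 183 regions broad in all 3, the clones shared 17.1% (D in C8) and 56.0% (C8 in D) as broad, and the split shares were 6.06%, 4.09%, 4.45% and 3.02% in the 4 pairings. At 1000 bp there were 120, 37 and 70 broad peaks and 8 regions; any peak was found for 99.6% of clone peaks in wild type, 92.9% of wild-type peaks in the clones and 100% of clone C8 peaks in clone D, a broad peak for 26.5% (clones in wild type), 16.7% (D in C8) and 54.1% (C8 in D), and the split shares were 41.9%, 30.7%, 40.8% and 13.5%. Joining neighbours under 200 bp apart gave 683, 421 and 709 broad peaks and 215 regions, 79.8% of wild-type peaks overlapped in a clone, 52.9% of clone peaks broad in wild type and 42.3% of D in C8, and split shares of 11.5% (clones in wild type) and 14.1% (D in C8). The 1000 widest peaks gave 168 regions, 26.4% of clone peaks broad in wild type and 34.3% between the clones in both directions, and split shares of 7.30%, 5.00%, 8.80% and 1.90%.

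A −log10 p of at least 10 gave 89.6% for wild-type peaks overlapped in a clone and split shares of 13.2% (clones in wild type) and 13.1% (D in C8). Equal list lengths gave 99.0% (clones in wild type), 95.6% (wild type in clones) and 100% (C8 in D) found, and 18.5% of clone peaks split in wild type; both remove weak peaks by construction. A reciprocal overlap of 50% gave 78.1%, 73.7%, 78.0% and 91.8% found. The central 200 bp moved none of its 8 values. Without the start of chromosome 14, an alternative chosen after seeing the data, the share found was 88.5% (wild type in clones) and 99.5% (C8 in D). Ranked by −log10 p, class 10 held 56.6%, 62.4% and 59.0% of the broad peaks of clone D, clone C8 and wild type, against 34.5%, 40.7% and 39.5% by enrichment.

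Leaving out a clone gave 82 to 130 regions broad in both remaining libraries, against 72 in all 3. The clone shares in wild type then ran from 97.4 to 98.6% (any peak), 29.5 to 42.3% (broad) and 20.1 to 21.4% (split). Those of wild type in the clones ran from 85.3 to 87.0%, 24.2 to 38.3% and 8.55 to 16.5%. These shares are the values of each clone alone, which lie within 1 SD of the mean by construction. No paired analysis was possible because wild type has 1 CTCF ChIP library, the numbers of the clones only name them, and no result comes from a test. Library depth cannot be read from the files, and its part in these counts was not tested.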
